A study of Mus musculus with 7 samples.

Results

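Aminoacyl-tRNA synthetases are the enzymes that attach each amino acid to its matching tRNA before translation. The 37 genes described here are the protein-coding genes in the deposited count table whose mouse symbol (GENCODE M21) is 1 capital letter followed by ars or ars2, or is Farsa, Farsb, Eprs or Pars2, out of 39017 gene IDs in all. They comprise 18 genes for cytosolic enzymes, 16 for mitochondrial enzymes, Gars and Kars, which each make both a cytosolic and a mitochondrial enzyme from 1 gene, and Lars2, the mitochondrial leucine enzyme, which is treated apart because its count lay far above that of any other synthetase gene. All 37 passed the filter on low counts.

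RNA was sequenced from mouse hippocampus after translating ribosome affinity purification (TRAP), in which ribosomes carrying an EGFP-tagged L10 protein are pulled down with the RNA on them. All the mice were GAD2 cre+ crossed with L10-EGFP+, so the tag depends on Cre driven by Gad2, a gene of GABAergic neurons, and 2 hippocampi went into each TRAP sample. The 3 bound libraries (titles GAD_ctrl1 to GAD_ctrl3, replicates 1 to 3) hold the RNA that was pulled down, and the 4 unbound libraries hold RNA that was not. Unbound replicates 1 and 2 carry UBS titles and replicates 3 and 4 UBGS titles, and the labels do not say what these series are. The labels give no strain, age, sex, animal or preparation batch, and do not say whether bound and unbound libraries came from the same tissue. P-values therefore measure the spread between these libraries, which may be partly technical. In these bulk RNA data, more cells of a type, more RNA per cell and a larger part of the RNA on ribosomes cannot be told apart.

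Library totals ranged from 38690380 to 51953811 counts. The labels were checked against cell type markers: all 12 GABAergic markers were higher in bound libraries and all 8 excitatory neuron markers were lower, with Slc32a1, which loads GABA into vesicles, at 237.2 ± 17.4 CPM in the bound group (SD, n = 3), against 15.5 ± 0.961 CPM in the unbound group (SD, n = 4). CPM are counts scaled to a library of 1000000. Lower in bound libraries were 5 of 6 astrocyte, 6 of 6 oligodendrocyte, 4 of 4 oligodendrocyte precursor, 3 of 5 endothelial and mural, 3 of 3 choroid plexus and 3 of 3 meningeal markers, and none of these was higher. All 10 microglia markers were higher, with a summed level of 314, 734 and 259.8 CPM in bound replicates 1 to 3 and 85.7 to 127 CPM in unbound libraries. Bound replicate 2 held the highest bound level of all 10 microglia markers. Of the 36 synthetase genes other than Lars2, 10, 10 and 16 were highest in bound replicates 1, 2 and 3. The part of microglial RNA in the synthetase values was not tested.

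Cytosolic synthetases supply charged tRNA for nearly all protein synthesis in the cell. Several of them assemble with the scaffold proteins Aimp1, Aimp2 and Eef1e1 into a multisynthetase complex, while the rest work outside it. Mitochondrial enzymes are made from nuclear genes, imported, and charge the tRNAs that mitochondrial DNA encodes. Glutamine is an exception in mitochondria, where glutamate is first loaded by Ears2 and then amidated by a complex that includes Qrsl1, Gatb and Gatc. In humans, variants in many of these genes are known from neuropathies and brain or white matter disease.

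Of the 36 synthetase genes without Lars2, 10 were higher in bound libraries, 6 were lower and 20 did not pass (edgeR quasi-likelihood test, Benjamini-Hochberg adjusted p under 0.05). Over all 19563 genes tested, 31% were called higher and 30.7% lower, 61.7% in all, and over the 15100 protein-coding ones 31.1% were higher and 32.8% lower, 63.9% in all. In 10 of the 36 genes every bound library stood above every unbound one (31.7% of all genes tested) and in 5 every bound library stood below (31.6%), with overlap in the other 21, so that the groups stayed apart in fewer of them than in the table as a whole (63.3%). No gene of the 36 was called and at least 2-fold higher (14.6% of all genes tested), and 1, Wars2, was called and at least 2-fold lower (17.8%). The calls were also read by compartment. Among the 18 cytosolic genes 8 were higher, 1 was lower and 9 did not pass, with a median log2 fold change of 0.24. Among the 16 mitochondrial genes 1 was higher, 5 were lower and 10 did not pass, with a median of 0.03. For the cytosolic genes the higher calls lay above the share of all genes tested (31%) and the lower calls under it (30.7%). For the mitochondrial genes the higher calls lay under that share, while the lower calls were near it. The median over all genes tested was −0.01, and −0.15 over the 5689 protein-coding genes with exons of 4000 to 8000 nucleotides, the length class that holds the median of both classes (5207 and 5328 nucleotides, all annotated exons merged). The difference between the classes was not tested. Summed levels did not overlap between the groups in either class: the cytosolic genes together held 617, 624 and 668 CPM in bound libraries and 475 to 533 CPM in unbound libraries, and the mitochondrial genes 110.6 to 120.4 CPM in bound libraries and 124 to 139 CPM in unbound libraries. These directions are relative to TMM scaling. With library totals in its place the median of all genes moved to 0.43, and the cytosolic and mitochondrial medians to 0.68 and 0.46. The cytosolic counts were then 14 higher and 0 lower, and the mitochondrial ones 6 higher and 2 lower. Of all 19563 genes tested 9285 were then higher and 3704 lower. The balance of mitochondrial calls thus turned while that of the whole table moved the same way. With a correction for exon length 10 cytosolic genes were higher and 0 lower, and 1 mitochondrial gene was higher and 1 lower. Of all genes tested 5350 were higher and 6277 lower with that correction. Without bound replicate 3, or without unbound replicate 1, 3 or 4, the mitochondrial genes called lower numbered 3.

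**Figure D1:**
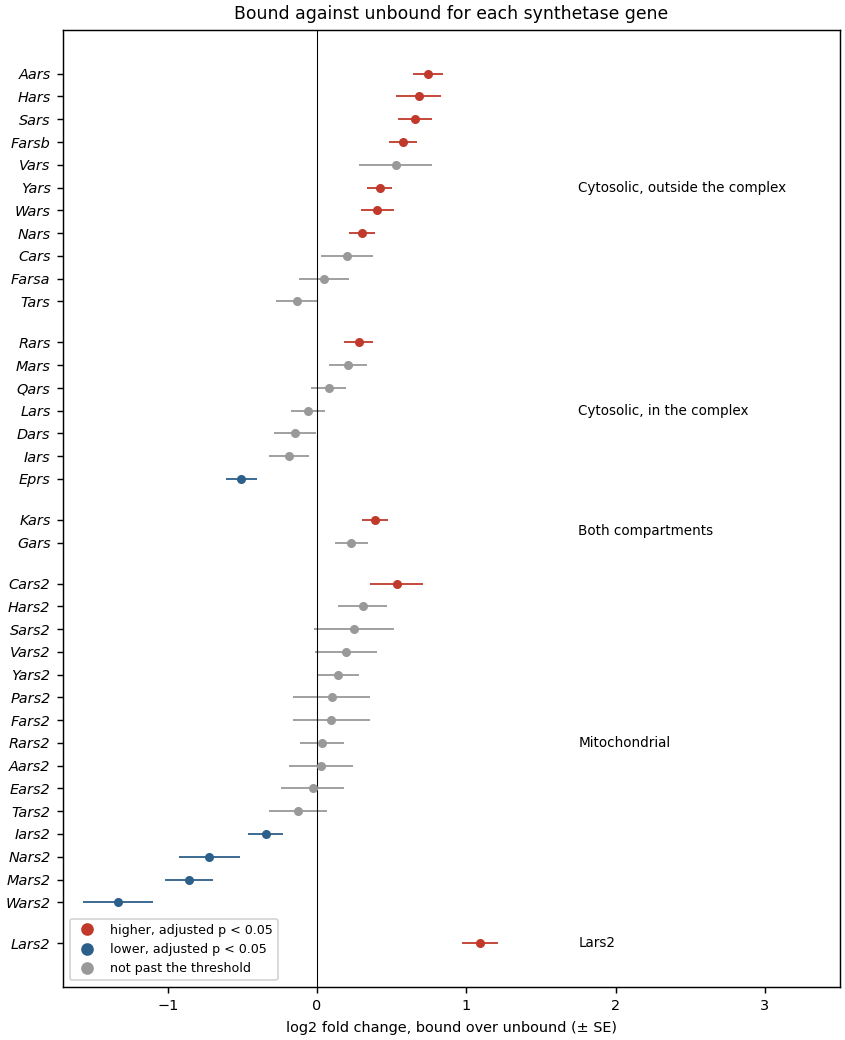
Log2 fold change of bound over unbound libraries for 36 of the 37 synthetase genes, each with its standard error (3 bound, 4 unbound libraries), grouped by class and coloured by the edgeR call. Called genes among the cytosolic enzymes lie to the right except Eprs (−0.51), and among the mitochondrial enzymes to the left except Cars2 (0.53).

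The cytosolic genes with the largest rise were those of the alanine, histidine and serine enzymes. Aars, the alanine enzyme (chr8:111033144-111057664, mm10), had 56.6, 67.6 and 73.6 CPM in bound replicates 1 to 3 and 43.6, 38.4, 39.1 and 36.6 CPM in unbound replicates 1 to 4. The groups did not overlap, and Aars was 1.67-fold higher (log2 0.74, SE 0.10, edgeR adjusted p = 8.4e-05). Exons of other genes overlap 15.1% of the Aars exons, 14.3% on the same strand (Exosc6), and how reads there were counted is not known here. Hars, the histidine enzyme, had 56.7, 54.2 and 52.7 CPM in bound libraries and 23.3, 37.5, 37.1 and 38.2 CPM in unbound libraries. Its groups did not overlap either, although unbound replicate 1 lay well under the other 3 unbound libraries (log2 0.68, SE 0.15, edgeR adjusted p = 0.0023). Sars, the serine enzyme, had 51.5, 48.8 and 54.0 CPM in bound libraries and 30.1, 27.4, 37.1 and 36.1 CPM in unbound libraries (1.57-fold, log2 0.65, SE 0.11, edgeR adjusted p = 0.00046). Every bound library stood above every unbound one for Sars, and the UBS libraries lay below the UBGS libraries.

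The 2 subunits of the cytosolic phenylalanine enzyme did not move together. Farsb, the beta subunit, had 69.3, 55.5 and 71.1 CPM in bound libraries and 42.6, 44.1, 42.4 and 46.3 CPM in unbound libraries, 1.49-fold higher with no overlap (log2 0.58, SE 0.10, edgeR adjusted p = 0.00035). Farsa, the alpha subunit, had 7.65, 7.24 and 6.13 CPM in bound libraries and 6.88, 5.61, 6.91 and 7.78 CPM in unbound libraries, and its groups overlapped (log2 0.05, SE 0.17, edgeR adjusted p = 0.82). Per kilobase of exon the subunits also stood far apart, Farsb at 24.9 and Farsa at 1.54 CPM per kilobase in bound libraries, against 16.7 and 1.497 CPM per kilobase in unbound libraries. Exons of Sgpp2 on the other strand overlap 9.5% of the Farsb exons, and whether counting used strand is not known here.

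Nars, Wars, Yars and Rars, the asparagine, tryptophan, tyrosine and arginine enzymes, were also higher. Nars was the cytosolic gene with the highest level, 99.4, 104 and 115 CPM in bound libraries and 90.9, 75.6, 88.6 and 89.0 CPM in unbound libraries, and rose 1.23-fold (log2 0.30, SE 0.09, edgeR adjusted p = 0.0096). Wars had 57.4, 61.9 and 58.9 CPM in bound libraries and 54.6, 38.8, 43.7 and 42.5 CPM in unbound libraries (log2 0.41, SE 0.11, edgeR adjusted p = 0.008). Unbound replicate 1 came close to the bound libraries for Wars, whose call was lost against the UBS libraries alone (log2 0.35, adjusted p = 0.084). Yars rose by log2 0.42 (SE 0.08) and Rars by log2 0.28 (SE 0.10). The Rars call was lost without bound replicate 1 or 2 or unbound replicate 2 or 4 (adjusted p = 0.074, 0.085, 0.059 and 0.06). It was also lost against the UBS libraries alone, against the UBGS libraries alone and with a correction for exon length. No cytosolic gene passed a test against a 1.5-fold minimum.

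Eprs, whose protein joins glutamate and proline to their tRNAs in 1 chain, was the only cytosolic gene called lower. It had 28.1, 28.5 and 36.2 CPM in bound libraries and 46.2, 41.9, 43.5 and 43.8 CPM in unbound libraries, 1.42-fold lower with no overlap (log2 −0.51, SE 0.11, edgeR adjusted p = 0.0015). Its merged exons are the longest of the 37 genes, at 18102 nucleotides, and the direction turned when fold changes were corrected for exon length (log2 0.31, adjusted p = 0.024). The 9 cytosolic genes that did not pass were Cars, Dars, Farsa, Iars, Lars, Mars, Qars, Tars and Vars, from log2 −0.19 for Iars, the isoleucine enzyme, to 0.53 for Vars, the valine enzyme, where bound replicate 3 stood at 11.6 CPM and the other 2 bound libraries at 6.51 and 6.02 CPM.

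The cytosolic genes were also read by membership of the multisynthetase complex. Over all genes tested 31% were higher and 30.7% lower, with a median log2 fold change of −0.01. Of the 7 cytosolic genes whose enzymes sit in the complex (Dars, Eprs, Iars, Lars, Mars, Qars and Rars), 1 was higher and 1 lower, with a median log2 fold change of −0.06. Of the 11 outside it, 7 were higher and 0 lower, with a median of 0.42. The count of 0 lower was the same in edgeR at an unadjusted p under 0.05, in DESeq2 and in limma-voom. Together the genes of the complex held 152, 164 and 169 CPM in bound libraries and 157 to 189 CPM in unbound libraries, which overlap, and those outside it 459.8 to 499 CPM in bound libraries and 318 to 348 CPM in unbound libraries, which do not. This split was not planned in advance, and the difference between these subclasses was not tested. Kars, which also sits in the complex but serves both compartments, is not in these counts. With Kars, 2 of 8 genes were higher and 1 lower, the median was 0.01, and the sums were 194.6 to 212.5 CPM in bound and 188 to 226 CPM in unbound libraries. All 3 scaffold genes stood higher in every bound library than in any unbound one, as did 31.7% of all genes tested, but only 2 passed. Eef1e1 stood at 22.5 ± 1.596 CPM in the bound group (SD, n = 3) against 8.24 ± 1.08 CPM in the unbound group (SD, n = 4). It rose by log2 1.45 (SE 0.13, edgeR adjusted p = 2.6e-06), and Aimp2 by log2 0.42 (SE 0.12). Aimp1 stood at log2 0.21 (edgeR adjusted p = 0.13).

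Gars and Kars, which serve both compartments, lay with the cytosolic genes in level. Kars, the lysine enzyme and also a member of the complex, had 43.0, 47.5 and 43.8 CPM in bound libraries and 37.1, 31.4, 34.5 and 33.8 CPM in unbound libraries. Its groups did not overlap (1.31-fold higher, log2 0.39, SE 0.09, edgeR adjusted p = 0.0026). Gars, the glycine enzyme, had 42.3, 33.2 and 40.8 CPM in bound libraries and 35.9, 28.9, 33.2 and 34.2 CPM in unbound libraries. Bound replicate 2 fell among the unbound libraries for Gars, which did not pass (log2 0.23, SE 0.11, edgeR adjusted p = 0.094) but passed without that library (log2 0.33, adjusted p = 0.022) or without unbound replicate 1 (log2 0.29, adjusted p = 0.047).

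**Figure D2:**
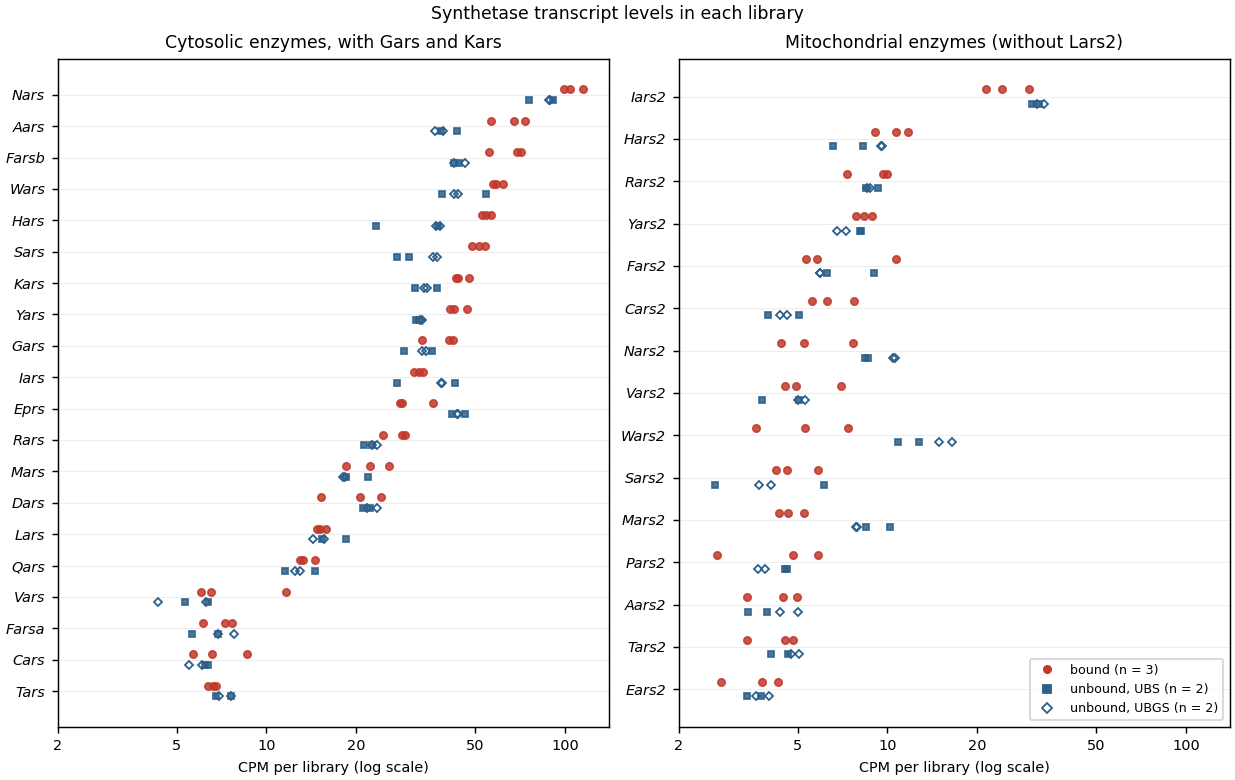
Level of 35 synthetase genes, Lars2 not among them, in each library, in CPM on a log scale, with bound libraries above unbound libraries in each row and the 2 unbound title series marked apart. Cytosolic genes reach 115 CPM (Nars), whereas the mitochondrial genes drawn, except Iars2, stay under 20 CPM in every library.

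Mitochondrial synthetase transcripts were scarcer than cytosolic ones. Per kilobase of exon, bound levels ran from 0.42 (Mars2) to 3.24 CPM (Rars2) for the 16 mitochondrial genes and from 1.06 (Cars) to 24.9 CPM (Farsb) for the 18 cytosolic genes. Wars2, the tryptophan enzyme (chr3:99141068-99239186, mm10), showed the largest fall. It had 7.36, 5.28 and 3.63 CPM in bound libraries and 12.8, 10.9, 14.9 and 16.4 CPM in unbound libraries. The groups did not overlap, and Wars2 was 2.52-fold lower (log2 −1.33, SE 0.23, edgeR adjusted p = 0.00048), a call kept in all 18 alternatives that were run, at log2 −1.61 to −0.89.

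Mars2 and Nars2, the methionine and asparagine enzymes, followed. Mars2 had 4.64, 5.25 and 4.33 CPM in bound libraries and 10.2, 8.49, 7.85 and 7.90 CPM in unbound libraries (1.81-fold lower, log2 −0.86, SE 0.16, edgeR adjusted p = 0.00087). Nars2 had 4.42, 5.25 and 7.69 CPM in bound libraries and 8.40, 8.58, 10.5 and 10.6 CPM in unbound libraries (1.65-fold lower, log2 −0.72, SE 0.20, edgeR adjusted p = 0.0096). Neither gene overlapped between the groups, and bound replicate 3 was the closest to the unbound libraries for Nars2. Both calls were lost with the exon-length correction (Mars2 at log2 −0.35, adjusted p = 0.084, and Nars2 at −0.45, adjusted p = 0.077), Mars2 having the longest merged exons of the mitochondrial genes other than Lars2 (11294 nucleotides). The Nars2 call was also lost against the UBS libraries alone (log2 −0.56, adjusted p = 0.11).

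Other mitochondrial calls were less settled. Iars2, the isoleucine enzyme and the most abundant mitochondrial gene apart from Lars2, had 29.8, 24.3 and 21.4 CPM in bound libraries and 32.1, 30.5, 31.8 and 33.4 CPM in unbound libraries (log2 −0.34, SE 0.12, edgeR adjusted p = 0.024). Bound replicate 1 stood just under the lowest unbound library for Iars2, whose call was lost without bound replicate 2 or 3 or unbound replicate 1, 3 or 4 (adjusted p from 0.052 to 0.086). Its direction turned, with no call, under library totals (log2 0.10, adjusted p = 0.53) and with the exon-length correction (log2 0.029, adjusted p = 0.84). Exons of other genes, Rab3gap2 among them, overlap 24.2% of the Iars2 exons on the opposite strand.

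Cars2, the cysteine enzyme, was the only mitochondrial gene other than Lars2 called higher. It had 7.74, 5.59 and 6.26 CPM in bound libraries and 3.996, 5.07, 4.37 and 4.59 CPM in unbound libraries. The groups did not overlap (1.45-fold higher, log2 0.53, SE 0.18, edgeR adjusted p = 0.023), and the call was lost without bound replicate 1 or unbound replicate 3 (adjusted p = 0.096 and 0.056). The 10 that did not pass were Aars2, Ears2, Fars2, Hars2, Pars2, Rars2, Sars2, Tars2, Vars2 and Yars2, from log2 −0.13 for Tars2 to 0.31 for Hars2. Ears2, the enzyme that starts the route to mitochondrial glutamine tRNA, stood at log2 −0.03 (SE 0.21).

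Set against each other for the same amino acid, cytosolic and mitochondrial genes formed 17 pairs without Lars2 (Eprs counted for glutamate and for proline, and Fars2 set against both Farsa and Farsb). In 12 of the 17 pairs the cytosolic gene had the higher log2 fold change. Cytosolic and mitochondrial genes passed in opposite directions in 2 pairs, Wars with Wars2 and Nars with Nars2, the cytosolic gene being the higher one in both. The log2 ratio of Wars to Wars2 was 2.96, 3.55 and 4.02 in bound libraries and 2.10, 1.84, 1.55 and 1.37 in unbound libraries. For Nars to Nars2 it was 4.49, 4.30 and 3.91 in bound libraries and 3.44, 3.14, 3.08 and 3.07 in unbound libraries. Neither ratio overlapped between the groups. The ratio also stood higher in every bound library for Mars with Mars2 (1.99 to 2.57 in bound, 1.10 to 1.21 in unbound libraries) and for Hars with Hars2, and lower in every bound library for Eprs with Ears2 (2.70 to 3.36 in bound, 3.45 to 3.63 in unbound libraries). The other 12 overlapped. How often ratios of other gene pairs separate the groups was not computed.

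**Figure D3:**
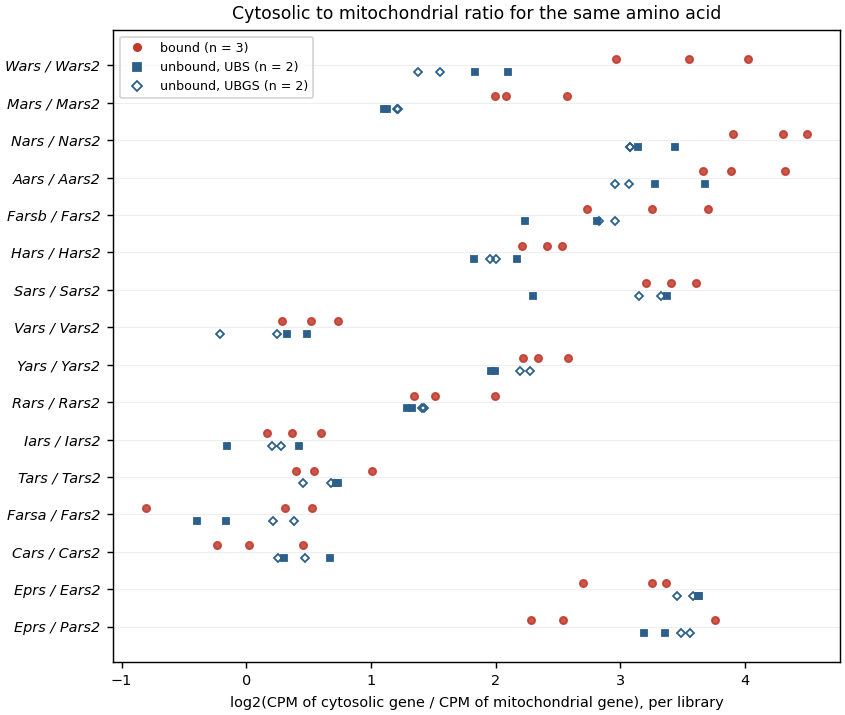
Log2 ratio of the cytosolic to the mitochondrial gene for the same amino acid in each library, for 16 pairs, ordered from the largest shift towards the cytosolic gene in bound libraries at the top. Bound and unbound libraries separate for Wars/Wars2, Mars/Mars2, Nars/Nars2 and Hars/Hars2 on one side and for Eprs/Ears2 on the other, and overlap in the other 11 pairs drawn.

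Lars2 (chr9:123366927-123462666, mm10) stood apart from every other synthetase gene. It had 9363, 10200 and 10650 CPM in bound libraries and 5984, 4238, 4313 and 4384 CPM in unbound libraries, which is 1.14% to 1.23% of all counts in bound and 0.383% to 0.503% in unbound libraries. Its bound level per kilobase was 36.4 times that of Farsb, the next gene, and it made up 92.3% of the summed CPM of all 37 genes in bound and 86.9% in unbound libraries. Lars2 was 2.13-fold higher in bound libraries (log2 1.09, SE 0.12, edgeR adjusted p = 1.5e-05). Gm42418, a noncoding gene that overlaps ribosomal RNA sequence, had 92370, 109700 and 134900 CPM in bound libraries and 71590, 65010, 48820 and 45030 CPM in unbound libraries (log2 0.96, SE 0.17). For every 100 counts of Gm42418 there were 10.1, 9.3 and 7.89 counts of Lars2 in bound libraries and 8.36, 6.52, 8.83 and 9.74 in unbound libraries, so that this ratio overlapped between the groups. The mitochondrial ribosomal RNA genes went the other way, mt-Rnr2 standing at 412.1 to 631.1 CPM in the bound libraries, against 241300 to 303400 CPM in the unbound ones. In blastn, the longest alignment of the 9 annotated Lars2 transcripts was 12 bases with Gm42418 and 27 bases with mt-Rnr1, and none was found with mt-Rnr2. Nuclear ribosomal RNA sequence was not used here, and how much of the Lars2 count comes from Lars2 mRNA was not tested.

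**Figure D4:**
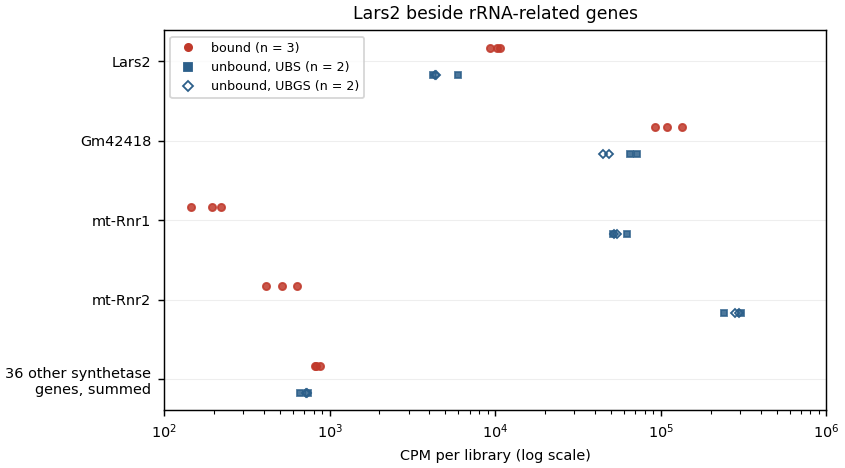
Level of Lars2, Gm42418, the mitochondrial ribosomal RNA genes and the sum of the other 36 synthetase genes in each library, in CPM on a log scale, with bound libraries above unbound libraries in each row. Lars2 and Gm42418 are both higher in the bound libraries, and Lars2 exceeds the sum of the other 36 genes (835.5 CPM on average in bound, 713.6 CPM in unbound libraries) in all libraries.

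Other genes of translation were set beside the synthetases. For the counts below, 31% of all genes tested were higher and 30.7% lower. Mitochondrial ribosomal protein genes were mostly higher, 66 of 77 with 1 lower (median log2 0.91), among them Mrpl52 (log2 1.95) and Mrpl34 (1.82), with Mrps25 lower (−0.50). Their median exon length is 2255 nucleotides, and the median of protein-coding genes of 2000 to 4000 nucleotides was 0.17. The list also holds shorter genes, such as Mrpl34 (607 nucleotides). In the shortest length class, to which Mrpl34 belongs, the median of 437 protein-coding genes was 0.92. Most genes of the list are longer than that class, so its median does not stand for the list as a whole. With the correction for exon length 58 of the 77 genes were higher. The list was not compared with genes matched to it in length. Of 9 mitochondrial translation factor genes 5 were higher and 1 lower (median 0.50), with Tufm, which brings charged tRNA to the mitochondrial ribosome, at log2 0.68, Mrrf, the recycling factor, at 0.64 and the initiation factor gene Mtif2 at −0.28. The median of the 16 mitochondrial synthetase genes, 0.03, lay under that of both lists, a difference that was not tested. Of the 4 genes for mitochondrial glutamine tRNA amidation and methionine formylation, Gatc alone passed (higher, log2 0.37). Of 7 cytosolic elongation factor genes 1 was higher and 3 lower (median −0.19). Eef1a2, the form of the tRNA-carrying factor made in neurons and muscle, was higher (log2 0.90), and Eef1a1, its widely expressed counterpart (−0.62), and Eef2k, a kinase that slows elongation (−0.61), were lower. Mitochondria-encoded genes of all kinds together made up 0.0867% to 0.123% of counts in bound and 28.5% to 32.9% in unbound libraries. The tRNAs among them, which the mitochondrial synthetases charge, went the same way, all 22 genes being lower. The pull-down takes RNA on tagged ribosomes, so these values do not measure how much mitochondrial RNA the cells hold. Summed, these tRNAs held 2.95 ± 0.469 CPM in the bound group (SD, n = 3), against 940.4 ± 37.9 CPM in the unbound group (SD, n = 4). Of these, mt-Tf averaged 0.0706 CPM over bound and 302.9 CPM over unbound libraries, and mt-Tv had no count in any bound library, which allows up to 0.0681 CPM at 3 counts in the shallowest one, against 413.2 CPM in unbound libraries.

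**Figure D5:**
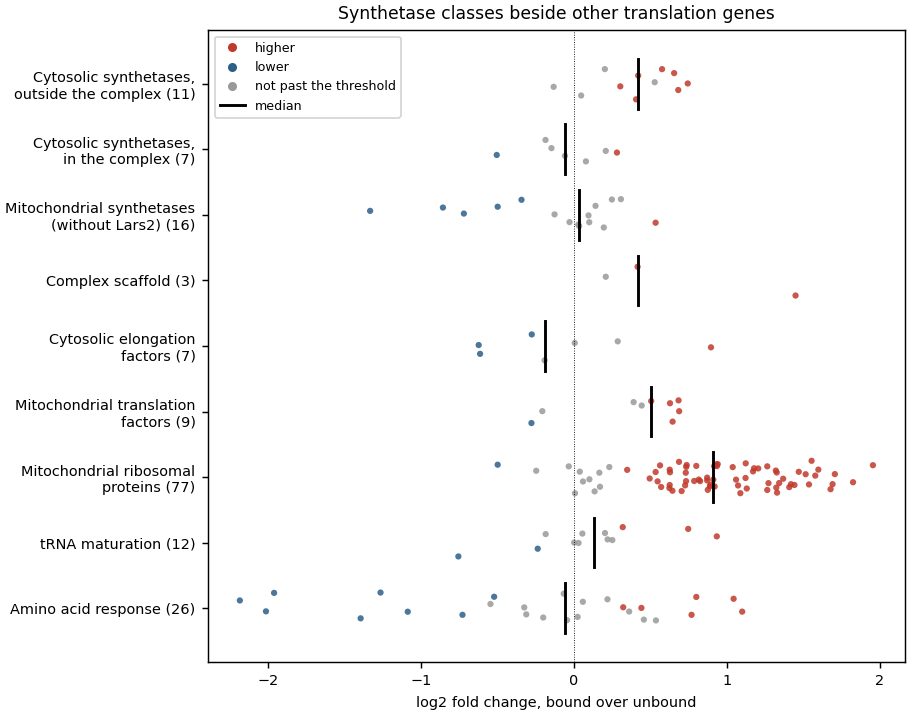
Log2 fold change of bound over unbound libraries for the genes of each class or list (1 point a gene, number tested in brackets, vertical bar at the median), coloured by the edgeR call. Mitochondrial ribosomal proteins have a median of 0.91 and mitochondrial synthetases of 0.03.

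Many cytosolic synthetase genes are known targets of ATF4, the transcription factor of the amino acid response, so their start regions were searched for TGATGNAA, the composite element bound by C/EBP and ATF4 proteins. RefSeq promoter windows (GRCm38.p6, 250 bases before to 50 after the start) matched 27 of the 37 genes, Mars under its newer symbol. Among those with none were Cars, Hars, Lars, Nars, Rars, Vars, Wars, Hars2 and Pars2. On either strand the element occurred in 4 of 11 cytosolic windows (Aars, Iars, Tars and Yars), in the window of Gars and in 0 of 13 mitochondrial ones, against 3.4% of 16210 protein-coding windows. The 5 windows are shown from 150 bases before to 30 after the start, 5′ to 3′ on the gene's strand, with the element or its reverse complement in capitals, because they are the synthetase promoters that share it.

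Aars, chr8:111033692-111033871 (+ strand): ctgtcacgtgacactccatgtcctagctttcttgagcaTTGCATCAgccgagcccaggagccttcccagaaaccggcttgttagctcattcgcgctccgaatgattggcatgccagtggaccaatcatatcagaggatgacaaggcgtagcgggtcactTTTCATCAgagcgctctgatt

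Yars, chr4:129189753-129189932 (+ strand): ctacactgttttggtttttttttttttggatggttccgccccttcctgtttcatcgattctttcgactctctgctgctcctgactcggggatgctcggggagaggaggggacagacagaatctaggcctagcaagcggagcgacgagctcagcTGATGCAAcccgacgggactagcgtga

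Gars, chr6:55037851-55038030 (+ strand): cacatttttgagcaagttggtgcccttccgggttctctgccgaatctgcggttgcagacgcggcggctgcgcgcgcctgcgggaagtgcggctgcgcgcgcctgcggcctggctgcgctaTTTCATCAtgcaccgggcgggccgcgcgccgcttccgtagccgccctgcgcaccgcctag

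Iars, chr13:49681980-49682159 (+ strand): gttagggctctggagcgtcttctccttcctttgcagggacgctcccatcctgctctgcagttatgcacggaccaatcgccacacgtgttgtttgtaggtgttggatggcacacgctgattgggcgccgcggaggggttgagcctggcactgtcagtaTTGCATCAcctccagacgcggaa

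Tars, chr15:11399629-11399808 (- strand): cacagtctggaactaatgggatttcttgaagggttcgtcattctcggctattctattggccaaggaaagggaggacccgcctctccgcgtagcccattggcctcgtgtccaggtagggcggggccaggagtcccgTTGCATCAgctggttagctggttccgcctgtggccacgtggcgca

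The 5 genes did not move as one. Aars, which holds 2 copies of the element, and Yars were higher (log2 0.74 and 0.42), while Gars (0.23), Iars (−0.19) and Tars (−0.13) did not pass. Sars, Farsb and Kars were higher with no TGATGNAA in their windows. Atf4 itself was higher, with 137.1, 137.7 and 151.8 CPM in bound libraries against 86.7, 65.5, 61.0 and 62.8 CPM in unbound libraries (log2 1.04). Of 26 amino acid response genes tested 6 were higher and 8 lower (median −0.06), where 31% of all genes tested were higher and 30.7% lower. Slc7a5, which carries large neutral amino acids into cells, was higher (log2 1.10), and Phgdh and Psat1, enzymes of serine synthesis, were lower (−2.02 and −1.96). Phgdh and Psat1 moved in the direction of the astrocyte markers, which summed to 241 ± 11.98 CPM in the bound group (SD, n = 3) and 2330 ± 486.6 CPM in the unbound one (SD, n = 4), and the part of astrocyte RNA in their values was not tested.

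Of 3 other promoter motifs, GCATGCGC, the core of the element bound by NRF1, occurred in 0 of 11 cytosolic and 3 of 13 mitochondrial windows (Rars2, Vars2 and Wars2), against 3.8% of all windows. Of these genes Wars2 was lower and the other 2 did not pass, so its window is shown with the motif in capitals.

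Wars2, chr3:99140940-99141119 (+ strand): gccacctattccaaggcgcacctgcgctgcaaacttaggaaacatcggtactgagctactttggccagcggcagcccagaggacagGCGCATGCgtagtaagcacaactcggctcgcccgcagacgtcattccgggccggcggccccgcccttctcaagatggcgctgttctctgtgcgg

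CCGGAAG, an ETS family motif, occurred in 3 of 11 cytosolic windows, 4 of 13 mitochondrial ones and those of Gars and Kars (12.4% of all windows), and GCCATNTT, a YY1 motif, in 1 and 3 windows of the classes and in that of Lars2 (6.8% of all windows). The ETS motif was in 3 of 6 windows of genes called higher, 1 of 5 of genes called lower and 5 of 15 of genes that did not pass, and the YY1 motif in 0 of 6, 1 of 5 and 3 of 15.

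The title series within the unbound group were compared last. For 15 of the 36 genes the UBS and UBGS libraries did not overlap, 6 with UBS above and 9 with UBS below, where 50.9% of all genes tested did not overlap. The largest gap was that of Wars2, at 11.8 CPM in UBS and 15.65 CPM in UBGS libraries on average (log2 −0.41).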

How the data were processed

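The authors deposited whole-number read counts per Ensembl gene, not normalized, for 7 libraries. The submitters' processing notes name STAR 2.5.3a, HTSeq without a version, and mm10. Annotation release, strand setting and handling of multiply matching reads are not given here, so values of overlapping genes are uncertain.

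IDs were named from GENCODE M21 (GRCm38, the assembly of mm10), which matched 37693 of 39017. The fit used edgeR 4.0.16 under R 4.3.3 (filterByExpr by group, TMM, robust glmQLFit, glmQLFTest) on the whole table, 3 bound against 4 unbound libraries, with no block. P-values were adjusted by Benjamini-Hochberg over all genes tested (threshold 0.05, no minimum fold). Log2 fold changes are bound minus unbound, their SE comes from the F statistic, and CPM use TMM-scaled library sizes. Within each group, pairs of libraries differed by 5.57 to 46.3 times the counting variance, so none appeared to be deposited again under another title. The lowest value was that of unbound replicates 3 and 4, the UBGS libraries, and the next was 25, for unbound replicates 2 and 3.

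Tested on simulated data (19068 genes), it found 74 of 100 genes given a log2 change of 1 and 97 of 100 given 2, beside 10 false calls. Only 200 genes were changed there, as many up as down, drawn from those with higher counts. In the real data 61.7% of genes tested were called, so these rates may not hold for them. Alternatives used DESeq2 1.42.0, limma 3.58.1 (voom), other scalings and filters, a per-library lowess offset on exon length, 1 unbound series, a 1.5-fold minimum and leaving out each library. Sequences are from RefSeq, and alignments from blastn 2.17.0.

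The genes, lists and motifs were chosen with earlier results of these data known. Values by library are given for the 3 largest rises and falls past the threshold in each class, for Gars, Kars, Lars2, Farsa and Farsb and for pairs called in opposite directions. Other genes given by library were chosen after their values were seen. From each list the text names the 2 called genes that rose most and the 2 that fell most, above a mean level of 5 CPM. AY036118 was not analysed here, and 1 mitochondrial gene, counted in its class, is not reported singly here.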

Additional observations from a re-analysis of the deposited data

Results flagged for a closer look

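In 5 synthetase genes 1 of the 4 unbound libraries lay farther from the other 3 than Dixon's test allows at 95%, where chance gives about 1 in 20 groups and 37 genes were looked at. Hars stood at 23.3 CPM in unbound replicate 1 and at 37.1 to 38.2 CPM in the other 3. Mars stood at 21.9 CPM in unbound replicate 1, against 18.1 to 18.5 CPM, and Fars2 at 9.02 CPM there, against 5.95 to 6.29 CPM. Lars2 was highest in the same library, at 5984 CPM against 4238 to 4384 CPM. Nars stood at 75.6 CPM in unbound replicate 2, against 88.6 to 90.9 CPM.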

How the results depend on the processing

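No paired analysis was possible because bound and unbound titles share no replicate numbers. Of 18 alternatives for each of 37 genes, 597 values stayed on their side of the threshold (those past it in the same direction), 46 lost the call, 19 gained one, and 4 changed sign with a call on at least 1 side. With library totals, Lars turned to log2 0.38 and Iars2 to 0.10. The same scaling gave 14 cytosolic genes higher and 0 lower, 6 mitochondrial higher and 2 lower, medians of 0.68 (cytosolic), 0.46 (mitochondrial), 0.38 (in the complex) and 0.86 (outside it), with 71.5% of all calls higher, against 50.3% with TMM. With the exon-length offset, Eprs turned to log2 0.31 and Iars2 to 0.029, 0 cytosolic and 1 mitochondrial gene were lower, and the median in the complex was 0.12. Against UBS libraries alone 0 mitochondrial genes were higher and 2 lower, and against UBGS libraries alone 2 cytosolic genes were lower, 0 mitochondrial genes were higher and the complex median was 0.05. Against a 1.5-fold minimum 6854 genes were called, among them 0 cytosolic genes in either direction (0 of the 11 outside the complex), 0 mitochondrial genes higher, 2 lower (Wars2 and Mars2) and 45 mitochondrial ribosomal protein genes higher. Beside these edgeR counts of 0, an unadjusted p under 0.05 was met by 1 cytosolic gene higher, 0 lower and 0 mitochondrial higher against the 1.5-fold minimum, by 1 mitochondrial gene higher against each series, and by 0 cytosolic genes lower with library totals or the length offset. DESeq2 and limma-voom each gave 8 cytosolic higher and 1 lower, and 1 mitochondrial higher and 5 lower. Leaving out 1 library at a time gave 7 to 8 cytosolic genes higher and 1 to 2 lower, 0 to 1 mitochondrial higher and 3 to 5 lower, a mitochondrial median of −0.079 to 0.14, and medians of −0.10 to 0.04 in the complex and 0.41 to 0.53 outside it. The cause of these changes was not tested. Depth limits low genes most: Wars2 rests on 160 to 430 counts in bound and 434 to 664 in unbound libraries.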

Other observations

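Genes that act on tRNA before or after charging went both ways, as did all genes tested (31% higher and 30.7% lower). Among editing enzymes and paralogs, 2 of 5 were higher and 1 was lower in bound libraries (median log2 0.54). Dtd1, which removes D-amino acids from tRNA, averaged 135.8 ± 7.05 CPM in the bound group (SD, n = 3) against 64.2 ± 4.48 CPM in the unbound group (SD, n = 4; log2 1.08, edgeR adjusted p = 4.6e-07). Aarsd1, which clears alanine tRNA loaded with the wrong amino acid, was higher (log2 0.59), and Tarsl2, a second cytosolic threonine enzyme that the naming rule leaves out, was lower (−0.39) while Tars did not pass.

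Of 12 tRNA maturation genes 3 were higher and 2 lower (median log2 0.13), where 31% of all genes tested were higher and 30.7% lower. Tsen34 and Tsen15, subunits of the endonuclease that splices tRNA, were higher (log2 0.93 and 0.75), and Trnt1, which adds the CCA end that synthetases load, was lower (−0.24). Of 4 genes of selenocysteine tRNA, which starts as serine loaded by Sars, Sepsecs, the selenocysteine synthase, was lower (log2 −1.19, SE 0.19, edgeR adjusted p = 0.00025), and the other 3 did not pass. Kars-ps1, the processed pseudogene named after Kars, had no count in any library.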
